A study of Mus musculus with 9 samples.

Results

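The 9 genes described here encode enzymes that turn arachidonic acid into prostaglandins and leukotrienes in mast cells, together with the phospholipase that frees it. They were picked by name, as the rows of a deposited count table whose Ensembl identifiers map to Ptgs1, Ptgs2, Hpgds, Ptges, Pla2g4a, Alox5, Alox5ap, Ltc4s and Lta4h, which is 9 of 47643 rows. RNA was measured by stranded mRNA sequencing in bone marrow-derived mast cells (BMMCs), grown from the marrow of C57BL/6 mice for at least 4 weeks in medium conditioned by WEHI-3 cells, a source of interleukin-3. Of the 3 groups, with 3 libraries each, Control was untreated, IgE+BSA was sensitized with IgE against dinitrophenyl and exposed to dinitrophenyl-coupled bovine serum albumin, and IgE+BSA+Luteolin also received luteolin, a plant flavone. The labels give luteolin as 10 µM for 24 h, but they repeat that text for every sample, and the study's legends for the sequencing describe luteolin both as given before and as given after the stimulus. Nothing states whether the 3 libraries of a group came from separate cultures or mice, so the p-values measure only the spread between these libraries, which may be technical.

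Arachidonic acid is cut from membrane phospholipids by cytosolic phospholipase A2, encoded by Pla2g4a. In the cyclooxygenase arm, COX-1 (Ptgs1, present in resting cells) or COX-2 (Ptgs2, made on activation) converts it to prostaglandin H2, from which hematopoietic prostaglandin D synthase (Hpgds) makes prostaglandin D2, the main prostaglandin of mast cells, and microsomal prostaglandin E synthase (Ptges) makes prostaglandin E2. In the lipoxygenase arm, 5-lipoxygenase (Alox5), helped by the membrane protein FLAP (Alox5ap), makes leukotriene A4. Leukotriene C4 synthase (Ltc4s) then joins it to glutathione, giving the first of the cysteinyl leukotrienes that constrict airways, while leukotriene A4 hydrolase (Lta4h) turns it into leukotriene B4, which attracts neutrophils.

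Library depth ran from 9515004 counts in Control replicate 2 to 24605689, and 3 counts were worth 0.121 to 0.290 CPM (a gene's count scaled to a common library size with edgeR's TMM factors), which covers counting error only. All 14 mast cell markers examined passed the filter on low values in these cells. Of 6 lymphocyte markers, 2 (Cd3e and Ms4a1) were at 0 in every library, while Ncr1 was at 1.94 to 3.31 CPM. Of 8 macrophage markers, 5 passed that filter, of which Adgre1 and Lyz2 were at 202 to 259 and 89.4 to 113 CPM. Mrc1, C1qa and C1qb were at most at 0.659, 0.0405 and 0.453 CPM. Of 12 genes linked to mast cell activation, 11 were higher in IgE+BSA than in Control, where 2.25% of all genes tested were. That list was chosen with earlier results of these data known, so its count is not an independent check of the stimulus. The Control group was not uniform. The summed level of 7 neutrophil markers was 216 CPM in Control replicate 1, 7.06 and 5.68 CPM in Control replicates 2 and 3, 145 to 159 CPM in IgE+BSA and 168 to 199 CPM in IgE+BSA+Luteolin, with Elane and Camp at 0 in Control replicate 2. Of 3 basophil markers, the protease Mcpt8 was at 432 CPM in Control replicate 1 and at 21.8 and 18.7 CPM in replicates 2 and 3, against 292 to 368 CPM in the other 6 libraries, but Prss34 was at 759, 650 and 610 CPM in the Control libraries and Cd200r3 ran the other way, at 688, 1044 and 1022 CPM. The mast cell proteases Mcpt4 (1752, 201 and 197 CPM in Control) and Cma1 (10125, 4043 and 3552 CPM) split the Control libraries as Mcpt8 did. Of the other mast cell markers, Cpa3, Tpsb2, Fcer1a, Fcer1g and Hdc were also highest in Control replicate 1. Kit (1750, 2303 and 2479 CPM) and Mitf (71.0, 113 and 112 CPM) ran the other way, as did Ms4a2, Gata2, Slc18a2, Tph1 and Il1rl1. In the neutrophil markers, Mcpt8 and Mcpt4, Control replicate 1 lay nearer to the stimulated libraries than to the other Control libraries. Among the eosinophil markers, Prg2 was at 31.5, 0.0967 and 0 CPM in the Control libraries, and Epx was at 1.70, 0 and 0 CPM. Siglecf ran the other way, at 4.14, 12.9 and 10.1 CPM, and Ccr3 was at 17.9, 22.7 and 14.8 CPM. The summed dendritic cell markers, nearly all Itgax, were at 14.1, 7.54 and 7.13 CPM. The labels do not say whether the Control libraries came from 1 culture, and whether each carries the right label was not tested, which bears on every value of Control. For stimulation, results without Control replicate 1, or with it as the only Control library, are therefore given beside many of those with all 3. The part of these cells in the members' values was not tested, and in bulk RNA fewer cells of a type and less RNA per cell cannot be told apart.

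The stretches of DNA just before the starts of Ptgs2, Ptgs1 and Alox5 are shown because these genes stand for the COX-2 gene that moved with stimulation, its sister gene that did not pass the test, and the most abundant gene of the lipoxygenase arm. Each is the 250 bases before the start in RefSeq (GRCm38.p6), written in the direction of the gene. Capitals mark TTGCNNAA, the letters of a C/EBP site, in Ptgs2, and GGGCGG, a GC box, in Alox5. None of the 8 motifs searched was in the Ptgs1 stretch.
Ptgs2: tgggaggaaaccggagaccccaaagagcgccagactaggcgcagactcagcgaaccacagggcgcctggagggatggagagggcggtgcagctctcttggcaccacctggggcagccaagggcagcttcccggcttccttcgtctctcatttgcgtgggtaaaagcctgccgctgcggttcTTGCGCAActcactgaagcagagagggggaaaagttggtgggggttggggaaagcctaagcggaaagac
Ptgs1: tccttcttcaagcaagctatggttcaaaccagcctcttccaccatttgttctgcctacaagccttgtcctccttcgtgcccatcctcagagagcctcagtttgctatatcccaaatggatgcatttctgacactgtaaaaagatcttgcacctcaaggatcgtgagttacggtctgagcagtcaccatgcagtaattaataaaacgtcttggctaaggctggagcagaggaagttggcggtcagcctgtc
Alox5: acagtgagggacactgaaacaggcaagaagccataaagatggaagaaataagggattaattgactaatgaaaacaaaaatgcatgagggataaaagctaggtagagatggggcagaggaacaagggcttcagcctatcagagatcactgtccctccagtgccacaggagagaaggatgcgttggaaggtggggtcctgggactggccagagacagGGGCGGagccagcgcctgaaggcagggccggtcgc

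These windows are chr1:150099781-150100030 on the plus strand for Ptgs2, chr2:36230176-36230425 on the plus strand for Ptgs1 and chr6:116461179-116461428 on the minus strand for Alox5. The Ptgs2 match to TTGCNNAA began 69 bases before the start, and 10.8% of 32544 mouse promoters held this motif in the 300 bases from 250 before to 50 after the start. A further stretch of Ptgs2, 19 bases long at chr1:150100039-150100057 and just past the start, held the core of a cyclic AMP response element (TGACG, here on the other strand) overlapping an E box (CACGTG), both in capitals.
Ptgs2 past its start: cactaCGTCACGTGgagtc
The first of these began 14 bases and the second 17 bases after the start, and 20.9% and 7.17% of promoters held them. Both strands were searched. Ptgs2 also held 1 match to the GC box, present in 35.9% of promoters, and 1 to GGAAAA, the core of an NFAT site, present in 23.3%. It held no match to the NF-kB consensus, which 8.49% of promoters held. That consensus replaced a looser form after its matches had been seen. The looser form was in 51% of promoters, with 1 match each in Ptgs1, Ptgs2 and Ptges, 3 each in Alox5 and Lta4h and 0 in Hpgds, Ltc4s and Pla2g4a. TATAAA, the letters of a TATA box, and TGANTCA, those of an AP-1 site, were in 13.6% and 7.79% of promoters, and neither was in the Ptgs2 window. Over the whole 300 bases Ptgs1 and Ltc4s held none of the 8 motifs, the looser NF-kB form aside. Among the other members, Hpgds held the C/EBP motif, Ptges and Alox5 the GC box, and Lta4h the NFAT core. For Pla2g4a 2 promoters were searched, of which the first held none of the 8 motifs and the second held TATAAA, 200 bases before its start. The NF-kB consensus was in none of the 8 genes with a promoter used here. That of Alox5ap was not used. A match is a description of the letters in a window and says nothing of binding, and the lack of a match says only that these letters are not there.

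The 3′ untranslated regions differed as well. In the annotated transcript with the longest coding sequence, that of Ptgs2 was 2445 bases long and held 14 copies of ATTTA, the pentamer of AU-rich elements that mark short-lived mRNAs, and 6 copies of the longer TATTTAT. Among 10135 tested genes with a 3′ untranslated region of at least 100 bases, 2.37% had as many copies of ATTTA and 4.92% as high a density (5.73 per kb). Ptgs1 had 0 in 921 bases. Alox5 and Alox5ap had 2 each, a count that 49.4% of the tested genes reached, at densities of 3.12 and 4.77 per kb that 19.9% and 7.66% reached. Pla2g4a had 4 in 443 bases, a count that 27.9% reached and a density of 9.03 per kb that 1.07% reached. The study's quantitative PCR primers for Ptgs2 also lay in this region, in the last of 10 exons (chr1:150106557-150106636), and are shown because they mark the part of the mRNA that assay reads.
Ptgs2 forward primer: GCCCGTGCTGCTCTGTCTTAAC
Ptgs2 reverse primer: GTTGCTCTAGGCTTTGCTGGCTAC

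Across all 9 libraries, and per kb of exon so that genes can be compared, the members spanned a wide range of levels. Alox5 (chr6:116410077-116461178, minus strand) averaged 728 CPM per kb and ranked 41 of all rows. Alox5ap (chr5:149264767-149288153, plus strand) averaged 145 CPM per kb, Ptgs1 (chr2:36230426-36252272, plus strand) 64.7 and Lta4h (chr10:93453411-93484875, plus strand) 37.2. Ptgs2 (chr1:150100031-150108227, plus strand) averaged 27.6 CPM per kb, a mean over groups that differed widely. Pla2g4a, which lies on the same chromosome (chr1:149829618-149961290, minus strand), averaged 14.0 CPM per kb, close to Hpgds (chr6:65117293-65144908, minus strand) at 13.5, and Ltc4s (chr11:50236461-50238616, minus strand) averaged 10.0. Ptges (chr2:30889471-30929863, minus strand), the enzyme of prostaglandin E2, was near the limit of detection at 0.356 CPM per kb. Thus the mRNA of the first enzyme of the lipoxygenase arm was far above that of either cyclooxygenase, and these cells held much more Hpgds than Ptges mRNA. All 9 members passed the filter, a median CPM above 1, although Ptges did so with a median of only 1.37 CPM.

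The place of Ptgs2 in this order changed with the group. In Control the order of mean CPM per kb was Alox5 (660 ± 124, SD, n = 3), Alox5ap (151 ± 37.7), Ptgs1 (58.0 ± 13.4), Lta4h (33.3 ± 8.04), Pla2g4a (13.3 ± 0.963), Hpgds (12.9 ± 1.62), Ltc4s (7.84 ± 7.80), Ptgs2 (4.21 ± 2.91) and Ptges (0.228 ± 0.104). The neighbours Pla2g4a and Hpgds, and Ltc4s and Ptgs2, did not differ beyond their spread. In IgE+BSA, Ptgs2 stood at 61.8 ± 6.42 CPM per kb, next to Ptgs1 at 65.2 ± 1.72, and the pair did not differ beyond their spread. In IgE+BSA+Luteolin, Ptgs2 stood at 16.7 ± 0.623 CPM per kb, between Lta4h at 41.6 ± 3.17 and Pla2g4a at 14.5 ± 0.183.

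Expressed within each library, the ratio of Ptgs2 to Ptgs1 in CPM per kb was 0.104, 0.0522 and 0.0486 in the Control libraries, 0.900, 0.886 and 1.06 in IgE+BSA and 0.236, 0.228 and 0.243 in IgE+BSA+Luteolin. COX-2 mRNA went from a small fraction of COX-1 mRNA to about its equal with the stimulus, and the 3 groups did not overlap in this ratio. The ratio of Ptgs1 to Alox5 stayed within 8.13 to 9.31 per 100 over all 9 libraries.

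**Figure D1:**
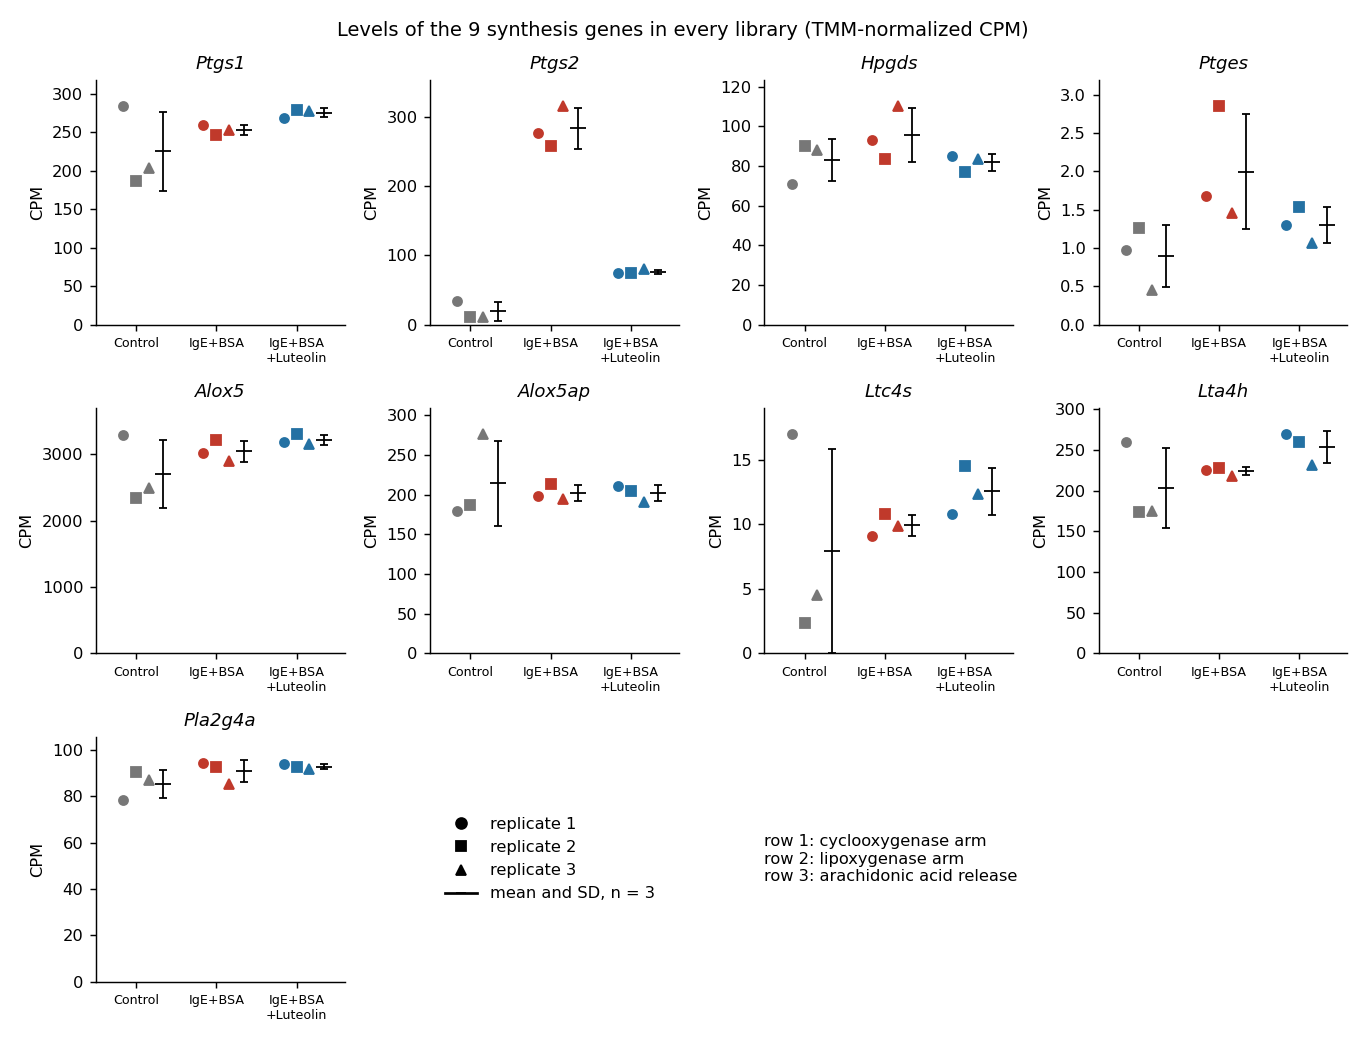
TMM-normalized CPM of each member in each of the 9 libraries, with the replicate shown by the symbol and the mean and SD of 3 libraries in black, on linear axes that start at 0. Only in the panel of Ptgs2 do the 3 groups separate by several fold, while Ptgs1, Alox5, Ltc4s and Lta4h show a gap between Control replicate 1 and the other Control libraries.

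The comparison of IgE+BSA with Control asks which of these genes differed after sensitization with IgE and exposure to the coupled albumin together. No group received IgE alone, so crosslinking cannot be told apart from sensitization. Of the 9 members, Ptgs2 was higher and the other 8 did not pass the test, where 3.27% of the 11560 genes tested did (2.25% higher, 1.02% lower; edgeR's quasi-likelihood test, Benjamini-Hochberg adjusted p under 0.05). Ptgs2, which encodes COX-2, was at 34.7, 11.5 and 11.7 CPM in Control and at 276, 258 and 315 CPM in IgE+BSA. Every IgE+BSA library lay far above every Control library. The log2 fold change was 3.85 (SE 0.46, 95% confidence interval 2.77 to 4.93), a 14.4-fold rise from 19.3 ± 13.3 to 283 ± 29.4 CPM (SD, n = 3), with an adjusted p of 0.00627 from edgeR. Without Control replicate 1 the log2 fold change was 4.56 (adjusted p = 8.79e-13, edgeR), and with that library as the only Control it was 3.01 (adjusted p = 8.23e-09, edgeR), which assumes that the lone library varies like the others.

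The other members of the cyclooxygenase arm did not pass with all 3 Control libraries. Ptgs1 was at 284, 187 and 204 CPM in Control and at 260, 247 and 253 CPM in IgE+BSA. Control replicate 1 lay above and the other Control libraries below all IgE+BSA libraries, and the log2 difference was 0.16 (interval -0.24 to 0.57, adjusted p = 0.644, edgeR). Hpgds was at 71.0, 90.0 and 88.1 CPM in Control and at 93.2, 83.3 and 110 CPM in IgE+BSA. These ranges overlapped, and the log2 difference was 0.20 (interval -0.13 to 0.54, adjusted p = 0.484, edgeR), although with Control replicate 1 as the only Control it was 0.41 (adjusted p = 0.022). Ptges was counted 11 to 20 times per library in Control and 30 to 57 times in IgE+BSA, or 0.453 to 1.26 CPM against 1.46 to 2.85 CPM. Its libraries did not overlap, as was so for 28.7% of the genes tested, and its log2 difference of 1.22 (interval 0.14 to 2.30) did not pass the adjustment (adjusted p = 0.198, edgeR), although it did without Control replicate 1 (1.37, adjusted p = 0.037). Gm13400, a gene on the same strand that overlaps Ptges, had up to 8 counts.

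None of the 4 genes of the lipoxygenase arm passed the test with all 3 Control libraries, at log2 differences from -0.09 to 0.28. Alox5 was at 3291, 2340 and 2494 CPM in Control and at 3020, 3211 and 2901 CPM in IgE+BSA (log2 difference 0.16, interval -0.20 to 0.53, adjusted p = 0.613, edgeR). Alox5ap was at 180, 186 and 276 CPM in Control and at 198, 214 and 194 CPM in IgE+BSA (log2 difference -0.09, interval -0.49 to 0.32). Neither gene's groups separated.

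The terminal enzymes of the arm passed the test in opposite directions with different Control libraries. Ltc4s was at 17 CPM in Control replicate 1, 2.32 CPM in replicate 2 and 4.53 CPM in replicate 3, against 9.13, 10.8 and 9.85 CPM in IgE+BSA, so Control libraries lay on both sides of the stimulated ones. Its log2 difference was 0.28 with an interval of -1.17 to 1.73. Without Control replicate 1 it was 1.38 (adjusted p = 0.000243, edgeR), and with only Control replicate 1 it was -0.79 (adjusted p = 0.00253, edgeR). Lta4h was at 260, 174 and 176 CPM in Control and at 226, 228 and 219 CPM in IgE+BSA, and its log2 difference went from 0.14 to 0.31 without Control replicate 1 (adjusted p = 0.00161, edgeR) and to -0.23 with that library alone (adjusted p = 0.0319, edgeR). The summed neutrophil markers, Mcpt8 and Mcpt4 split the Control libraries in the same way, while Cd200r3, Kit and Mitf ran the other way. The part of the cells behind these markers in the values of Ltc4s and Lta4h was not tested. The gene Gm26542, antisense to Ltc4s, had 16 to 28 counts per library, up to 70.8% of the Ltc4s count in Control replicate 2, so the Ltc4s value there carries that uncertainty if strand was not used in counting.

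Pla2g4a, the phospholipase upstream of both arms, did not pass. It was at 78.4, 90.3 and 87.0 CPM in Control and at 94.4, 92.5 and 85.4 CPM in IgE+BSA, a log2 difference of 0.09 with an interval of -0.15 to 0.33. The sign of the difference also turned for 4 members beside Ltc4s and Lta4h, from 0.32 without Control replicate 1 to -0.19 with it alone for Ptgs1, from 0.28 to -0.13 for Alox5, from -0.25 to 0.15 for Alox5ap and from -0.014 to 0.19 for Pla2g4a.

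**Figure D2:**
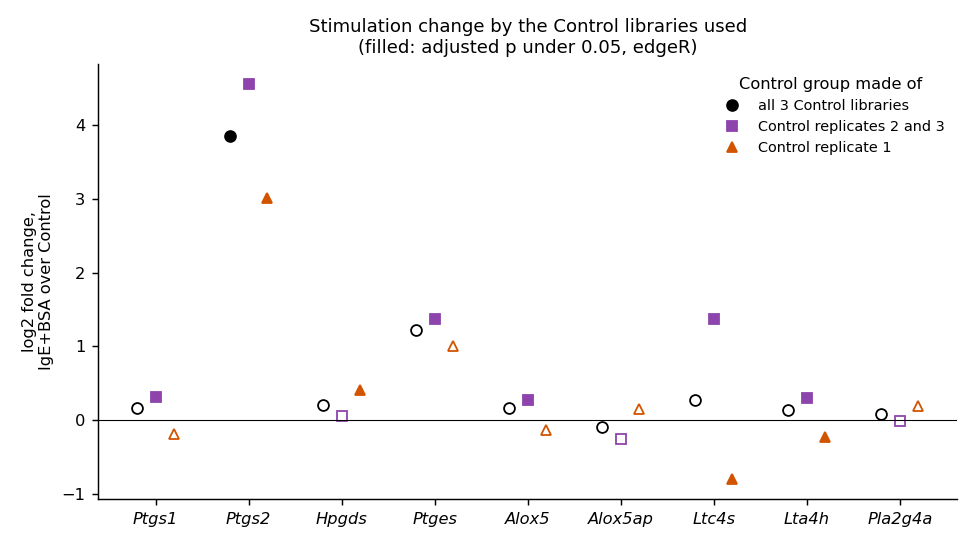
Log2 fold change of IgE+BSA over Control for each member, with all 3 Control libraries (circles), without Control replicate 1 (squares) and with Control replicate 1 alone (triangles), where filled symbols passed an adjusted p of 0.05 in edgeR. Ptgs2 is filled and between 3.01 and 4.56 under each choice, whereas Ptgs1, Alox5, Ltc4s and Lta4h lie above 0 without Control replicate 1 and below 0 with it alone.

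With Control replicate 1 left out, 6 members were higher, namely Ptgs1, Ptgs2, Ptges, Alox5, Ltc4s and Lta4h, but 45.0% of all genes then passed. With Control replicate 1 as the only Control library, Ptgs2 and Hpgds were higher and Ltc4s and Lta4h lower, and 42.3% of all genes passed. Ptgs2 was the member that passed in the same direction under both, and it did so in 16 of 16 alternative settings.

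The comparison of IgE+BSA+Luteolin with IgE+BSA asks what luteolin changed in stimulated cells. Here 3 of the 9 members passed the test, Ptgs2 and Hpgds lower and Lta4h higher, where 40.0% of all genes tested did (21.9% lower, 18.1% higher). A share of 3 in 9 is near that background. Ptgs2 was at 74.6, 75.2 and 79.8 CPM with luteolin, against 276, 258 and 315 CPM without it. All 3 luteolin libraries lay within a narrow band far below the stimulated ones. Ptgs2 fell by 1.88 on the log2 scale (SE 0.07, interval -2.04 to -1.73), which is a change of -72.9%, with an adjusted p of 9.92e-13 from edgeR. Ptgs2 passed as lower in 15 of 15 alternative settings, at log2 fold changes from -1.95 to -1.77.

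Of the other 3 genes of the cyclooxygenase arm, Hpgds passed. Hpgds was at 85.2, 76.8 and 83.5 CPM with luteolin against 93.2, 83.3 and 110 CPM without it, and these ranges overlapped. Its log2 fold change was -0.22 (SE 0.08, interval -0.40 to -0.05, adjusted p = 0.0436, edgeR), a call that held in 7 of 15 alternative settings. It was lost on leaving out IgE+BSA replicate 1, IgE+BSA replicate 3, IgE+BSA+Luteolin replicate 1 or IgE+BSA+Luteolin replicate 2, and without IgE+BSA replicate 3 the value was -0.11. Ptgs1 was at 268, 279 and 278 CPM with luteolin, all above the stimulated libraries, but its log2 difference of 0.12 (interval 0.01 to 0.23) did not pass the adjustment (adjusted p = 0.0716, edgeR). It passed as higher in 3 of 15 alternative settings, namely library size alone, upper-quartile factors and the replicate block. Ptges was at 1.31, 1.54 and 1.06 CPM, with a log2 difference of -0.60 whose interval reached from -1.31 to 0.11, and without IgE+BSA replicate 2 the value was -0.26.

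In the lipoxygenase arm, Lta4h was at 269, 260 and 232 CPM with luteolin against 226, 228 and 219 CPM without it. The groups did not overlap, as held for 50.3% of the genes tested, and the log2 fold change was 0.18 (SE 0.06, interval 0.05 to 0.31, adjusted p = 0.0257, edgeR). This call held in 10 of 15 alternative settings and was lost on leaving out IgE+BSA replicate 1 or 3 or IgE+BSA+Luteolin replicate 1 or 2, at adjusted p from 0.0736 to 0.163 in edgeR. It was also lost with all 9 libraries in 1 fit (adjusted p = 0.486, edgeR). Ltc4s was at 10.8, 14.5 and 12.4 CPM with luteolin, above the stimulated libraries by a log2 difference of 0.35 (interval 0.06 to 0.63), and it missed the threshold (adjusted p = 0.0515, edgeR). It passed as higher in 6 of 15 alternative settings, among them the fits without IgE+BSA replicate 2 (0.41, adjusted p = 0.038, edgeR) and without IgE+BSA+Luteolin replicate 1 (0.44, adjusted p = 0.0342, edgeR). Without IgE+BSA+Luteolin replicate 2 the value was 0.22 (adjusted p = 0.275, edgeR), and without IgE+BSA replicate 1 it was 0.29 (adjusted p = 0.182).

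Alox5 and its partner Alox5ap did not pass. Alox5 was at 3190, 3301 and 3160 CPM with luteolin (log2 difference 0.08, interval -0.03 to 0.19). Alox5ap was at 210, 205 and 190 CPM, a log2 difference of 0.00 with an interval from -0.13 to 0.13. Pla2g4a was at 94.0, 92.7 and 91.7 CPM with luteolin (log2 difference 0.03, interval -0.09 to 0.16).

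**Figure D3:**
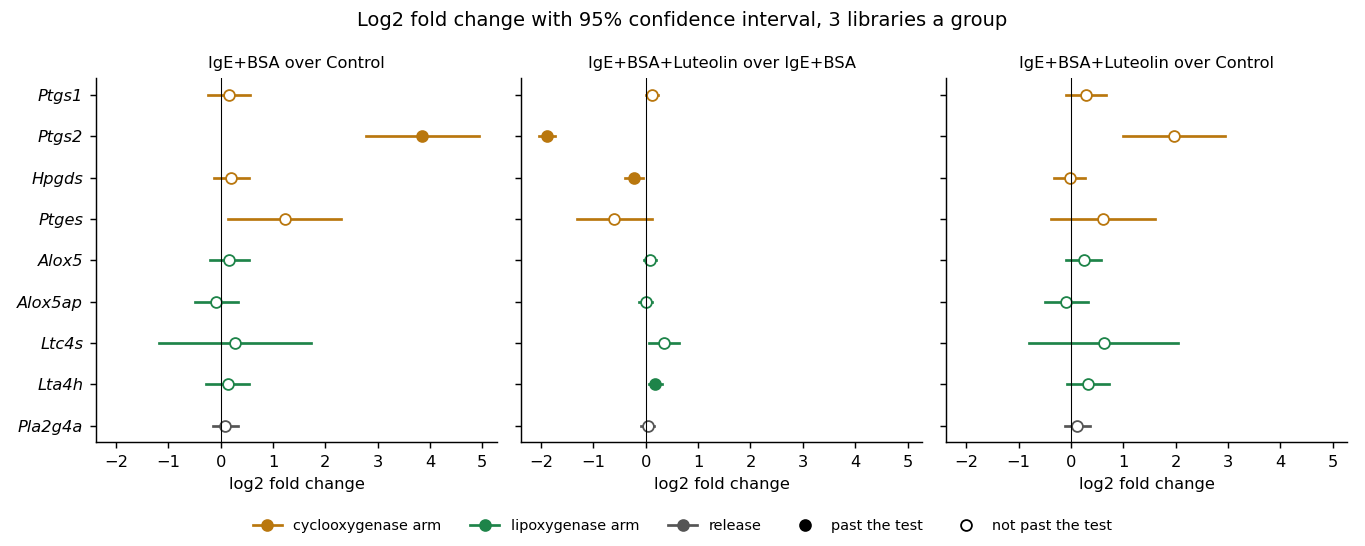
Log2 fold change (points) with its 95% confidence interval (lines) from edgeR for each member in the 3 comparisons, coloured by arm and filled where the adjusted p was under 0.05. Ptgs2 sits at 3.85, -1.88 and 1.97 from left to right, and the intervals against Control are wider than those between the stimulated groups, most of all for Ltc4s.

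Set against Control, the luteolin-treated stimulated cells showed no member past the test, where 3.04% of all genes tested passed (0.285% higher, 2.75% lower) and 2653 genes had an unadjusted p under 0.05. Ptgs2 was closest, at 76.5 ± 2.85 CPM against 19.3 ± 13.3 CPM (SD, n = 3). The groups did not overlap, as was so for 28.5% of the genes tested, and the log2 difference was 1.97 (interval 1.0 to 2.95), a ratio of 3.93, with an adjusted p of 0.0545 from edgeR. It passed as higher in 7 of 16 alternative settings, at 2.71 without Control replicate 1 (adjusted p = 1.38e-12, edgeR) and at 1.14 with Control replicate 1 alone (adjusted p = 1.23e-06, edgeR), and in DESeq2 and limma. Every luteolin library lay between the Control and the stimulated libraries in Ptgs2. Of the other 8 members, the unadjusted p was lowest for Lta4h (0.103) and Ptgs1 (0.114), and the log2 differences ran from -0.09 for Alox5ap to 0.63 for Ltc4s. Without Control replicate 1, Ptgs1, Ptgs2, Alox5, Ltc4s and Lta4h were higher, where 60.0% of all genes passed.

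Read arm by arm, the median log2 fold change from Control to IgE+BSA was 0.71 over the 4 genes of the cyclooxygenase arm. It was 0.15 over the 4 of the lipoxygenase arm, beside 0.02 over all genes tested. In these arms 1 and 0 genes were called, where 3.27% of all genes tested were. From IgE+BSA to IgE+BSA+Luteolin the medians were -0.41 and 0.13, beside 0.02 over all genes. The first arm had 2 called lower and the second 1 called higher, where 21.9% and 18.1% of all genes tested were. With 4 genes an arm, these counts do not set the arms apart. Against Control, the luteolin-treated cells gave medians of 0.45 and 0.28, beside 0.01. In the first 2 of these comparisons the cyclooxygenase median lay midway between Hpgds and the sparsely counted Ptges, which did not pass the test in either, so it is not a measure of Ptgs2. These comparisons share libraries, so the rise and the fall of Ptgs2 both rest on the IgE+BSA libraries.

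Among the genes that supply and return arachidonic acid, of a list of 32 with 19 tested, 1 rose and 1 fell with stimulation, and 4 were higher and 3 lower with luteolin, where 3.27% and 40.0% of all genes tested passed. On leaving out each library in turn, 0 to 8 passed as higher and 0 to 4 as lower with stimulation, the most without Control replicate 1, where 45.0% of all genes passed. With luteolin, 1 to 8 passed as higher and 2 to 3 as lower over 15 alternative settings. Faah, which hydrolyses the arachidonic acid amide anandamide, was at 26.3, 31.4 and 33.7 CPM in Control, 91.2, 68.0 and 123 CPM in IgE+BSA and 25.4, 23.7 and 27.7 CPM with luteolin. It thus rose in every stimulated library (log2 fold change 1.62, adjusted p = 0.0112, edgeR) and was lower with luteolin in every library (-1.88, adjusted p = 2.58e-08). The rise lost its call without Control replicate 2 (adjusted p = 0.056, edgeR) or IgE+BSA replicate 1 (0.0677). Pla2g15, a lysosomal phospholipase, went the other way, from 64.5 to 66.3 CPM in Control to 39.8 to 40.2 CPM in IgE+BSA (log2 fold change -0.72, adjusted p = 0.0101, edgeR) and 49.8 to 63.7 CPM with luteolin (0.54, adjusted p = 9.53e-05). Its fall with stimulation passed in 11 of 16 alternative settings and was lost without Control replicate 2 or any 1 of the IgE+BSA libraries, at adjusted p from 0.0514 to 0.116 in edgeR, and with replicate number as a block (adjusted p = 0.0766).

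Acsl4, the ligase that loads arachidonic acid onto coenzyme A, was at 181 to 225 CPM in IgE+BSA and at 119 to 139 CPM with luteolin (log2 fold change -0.73, adjusted p = 1.66e-06, edgeR). Its change with stimulation of 0.61 did not pass (adjusted p = 0.183, edgeR), and the Control libraries ran from 91.2 to 169 CPM. It passed as higher both without Control replicate 1 (0.34, adjusted p = 0.00872, edgeR) and with that library alone (1.18, adjusted p = 1.7e-05). Pla2g7, the platelet-activating factor acetylhydrolase and the most abundant of this list per kb, was higher with luteolin, from 528 to 564 CPM to 755 to 843 CPM (0.55, adjusted p = 8.35e-07), while its Control libraries stood at 833 CPM in replicate 1 and 363 and 374 CPM in the others. Its difference with stimulation was 0.53 without Control replicate 1 (adjusted p = 3.15e-05, edgeR) and -0.62 with it alone (adjusted p = 9.43e-05).

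Outside the members, 11 of a list of 17 other prostanoid synthases, exporters and breakdown enzymes were tested. With all 3 Control libraries 0 passed with stimulation in edgeR, where 3.27% of all genes tested did and 2362 had an unadjusted p under 0.05. Leaving out each library gave 0 to 3 higher and 0 to 2 lower, the most without Control replicate 1, where 45.0% of all genes passed. With luteolin, 0 to 8 passed as higher and 0 as lower over 15 alternative settings. In the main fit 3 were higher and 0 lower, where 18.1% and 21.9% of all genes tested were. These were the carbonyl reductase Cbr1, which reduces prostaglandin E2 (14.2 to 18.0 CPM against 20.7 to 25.4 CPM, log2 fold change 0.58, adjusted p = 0.000717, edgeR), Ptges2, a second prostaglandin E synthase (0.38, adjusted p = 0.0178), and Akr1b3, an aldose reductase with prostaglandin F synthase activity (0.28, adjusted p = 0.00233). With stimulation, these 3 genes passed as lower with Control replicate 1 as the only Control library (Cbr1 at -0.79, adjusted p = 0.00133, edgeR, Akr1b3 at -0.47, adjusted p = 0.000731, and Ptges2 at -0.44, adjusted p = 0.0487). The Ptges2 call with luteolin was lost without IgE+BSA replicate 1 (adjusted p = 0.0931, edgeR) or IgE+BSA+Luteolin replicate 1 (0.107). Akr1c18, an aldo-keto reductase and the most abundant of the list per kb, was at 214 CPM in Control replicate 1 and 39.1 and 34.7 CPM in the other Control libraries, the same split as Ltc4s, and at 169 to 196 CPM in the other 6 libraries.

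On the lipoxygenase side, 13 of 21 other lipoxygenases and genes of leukotriene export and breakdown were tested. With stimulation 0 passed in edgeR with all 3 Control libraries, where 3.27% of all genes tested did. On leaving out each library 0 to 3 passed as higher and 0 to 4 as lower. The most passed without Control replicate 1, where 45.0% of all genes did. Among these were Mgst3 (-0.87, adjusted p = 0.00455, edgeR) and Abcc1 (0.38, adjusted p = 0.000673). With luteolin 2 were higher and 1 lower, where 18.1% and 21.9% of all genes tested were. Leaving out each library there gave 0 to 1 higher and 1 to 2 lower, and all 15 alternative settings gave 0 to 5 higher and 0 to 2 lower. Mgst3, a microsomal enzyme that can also conjugate leukotriene A4, was at 3.20 to 3.80 CPM without and 3.77 to 6.81 CPM with luteolin (log2 fold change 0.65, adjusted p = 0.0301, edgeR), and Alox8, an arachidonate lipoxygenase, at 3.22 to 5.25 CPM and 5.79 to 7.06 CPM (0.59, adjusted p = 0.0256). Each of these 2 calls held in 10 of 15 alternative settings. Abcc1, the transporter that exports leukotriene C4, was at 285 to 292 CPM without and 249 to 260 CPM with luteolin, a log2 fold change of -0.19 (adjusted p = 0.00909, edgeR), which did not hold under scaling by library size alone (-0.07, adjusted p = 0.24) or by upper-quartile factors (-0.11, adjusted p = 0.093). Cotl1, an actin-binding protein that also binds 5-lipoxygenase, was the most abundant of the list and did not pass (adjusted p = 0.0832, edgeR).

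Receptors for these lipids were counted in the same way. Of 10 prostanoid receptors 4 were tested, and 2 were lower with luteolin, where 21.9% of all genes tested were. Ptger4, the EP4 receptor for prostaglandin E2, was at 33.4, 62.5 and 66.6 CPM in Control, 78.1, 67.5 and 71.9 CPM in IgE+BSA and 11.3, 11.7 and 13 CPM with luteolin. The luteolin libraries thus lay below those of both other groups, with a log2 fold change of -2.59 against IgE+BSA (SE 0.09, adjusted p = 2.09e-13, edgeR). Against Control, Ptger4 was the 1 prostanoid receptor that was lower (-2.18, adjusted p = 0.0118, edgeR), where 2.75% of all genes tested were. That count of 1 held in 6 of 16 alternative settings and was 0 to 2 on leaving out each library in turn. Ptgs2, at -1.88 against IgE+BSA, had luteolin libraries that lay above every Control library. With stimulation Ptger4 did not pass with all 3 Control libraries (0.42, adjusted p = 0.38, edgeR) or without Control replicate 1 (0.11, adjusted p = 0.27), but it was higher with that library as the only Control (1.1, adjusted p = 1.51e-05). Ptgir, the prostacyclin receptor, was at 15.1 to 17.3 CPM without and 8.59 to 13.3 CPM with luteolin (-0.54, adjusted p = 0.0065, edgeR). Ptger3, the EP3 receptor and the most abundant of the family per kb, stayed at 219 to 252 CPM over all 9 libraries. Of 7 leukotriene and lipoxin receptors 4 were tested, and with all libraries 0 passed in any of the 3 comparisons in edgeR, where 3.27%, 40.0% and 3.04% of all genes tested did. On leaving out each library in turn, 0 to 1 passed as higher and 0 to 2 as lower with stimulation, and 0 to 1 in each direction between luteolin-treated cells and Control. The leukotriene B4 receptor Ltb4r1, the most abundant of them, ran from 23.1 to 32.3 CPM.

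**Figure D4:**
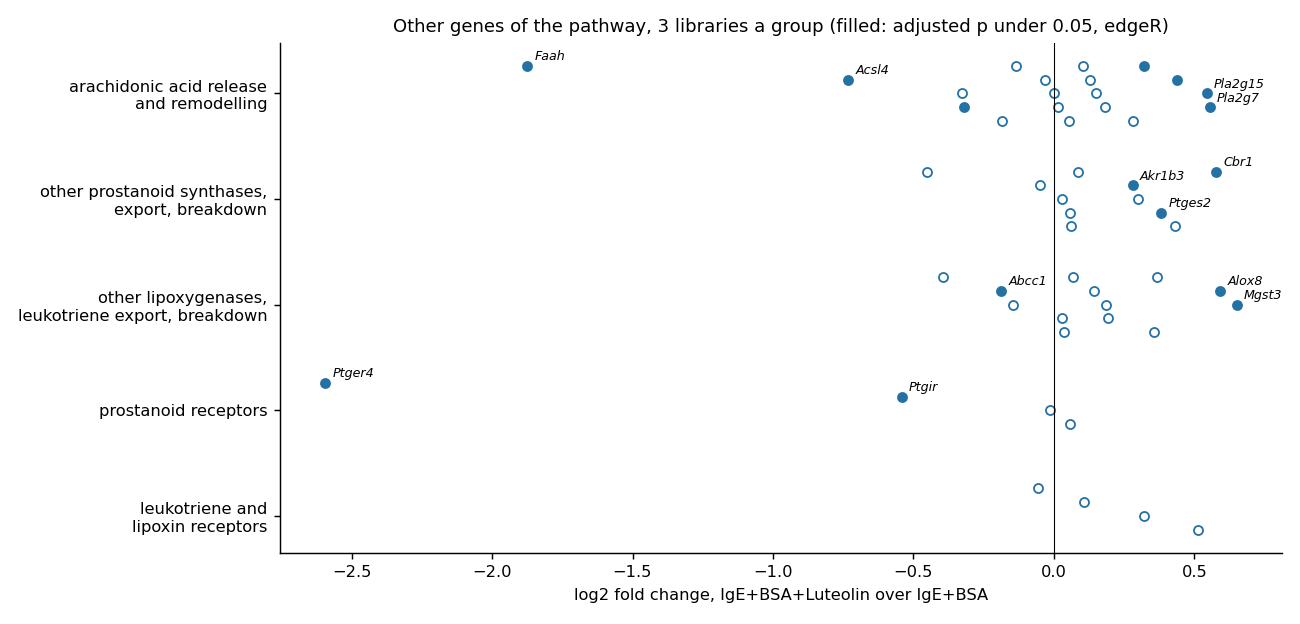
Log2 fold change of IgE+BSA+Luteolin over IgE+BSA for every tested gene of 5 lists around the pathway, 1 point a gene, filled where the adjusted p was under 0.05 in edgeR. Ptger4 (-2.59) and Faah (-1.88) lie far to the left of all others, and the 4 leukotriene and lipoxin receptors are all open.

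Over the 9 libraries, the genes with the pattern most like that of Ptgs2 among 8508 searched were Nr4a1 (Pearson r = 0.997 over 9 libraries), Ccl1 (0.995) and Il13 (0.992), by TMM log2 CPM. Those most like Ltc4s were H13, Bag6 and Mrpl12 (0.984 to 0.988), those most like Alox5 were Emc10, St7 and Eftud2 (0.994 to 0.995), and those most like Hpgds were Usp16, Fam133b and Cnst (0.942 to 0.960). These values describe 9 points that share their groups and the split of the Control libraries, and no test was applied.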

How the data were processed

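Per the labels and the study's methods, the authors cleaned reads with HTStream and mapped them by STAR 2.7.0f on the mm10 build, and they deposited the raw count of each Ensembl gene. The annotation release and the strand setting of counting are not given in the sources used here. Identifiers were matched to symbols through GENCODE (GRCm38). In R 4.3.3, genes with a median CPM above 1 over the 9 libraries (11560) were tested with edgeR 4.0.16 (TMM factors, quasi-likelihood, two-sided). Each comparison used its own 6 libraries, and p-values were adjusted over all genes tested by the Benjamini-Hochberg method, with a threshold of 0.05. The script was tested on simulated data. The members and gene lists were chosen with earlier results of these data known. Named from each list were the called genes with the greatest changes (up to 3 with luteolin, up to 2 with stimulation) and the most abundant gene per kb. For Ptgs2, Hpgds, Alox5 and Ltc4s, the 3 most alike genes with a mean of at least 10 CPM were named, at a prior count of 2. Alternatives covered DESeq2 1.42.0, limma 3.58.1, scaling, filters, a joint fit, a replicate block and each library left out. The use of Control replicate 1 as the only Control was added after seeing the data.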

Additional observations from a re-analysis of the deposited data

How the results depend on the processing

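Stimulation: with all 3 Control libraries 378 genes and 1 member passed, and Ptgs2 passed as higher in every setting tried. The gene count was 1194 with DESeq2, 618 with no filter on low counts, 1105 with all 9 libraries in 1 fit, and 144 with the replicate block. Leaving out each library in turn gave 90 to 5207 genes and 1 to 6 members (1 to 3 of the cyclooxygenase arm, 0 to 3 of the lipoxygenase arm), the highest without Control replicate 1. With Control replicate 1 as the only Control library 4892 genes and 4 members passed, and Ptgs1 (-0.19), Alox5 (-0.13), Alox5ap (0.15), Ltc4s (-0.79), Lta4h (-0.23) and Pla2g7 (-0.62) changed sign on the log2 scale. Library size alone turned Ptgs1 (-0.00041), Alox5 (-0.0037), Lta4h (-0.027), Pla2g4a (-0.091) and Pla2g7 (-0.085), and upper-quartile factors turned Pla2g4a (-0.016) and Pla2g7 (-0.029), none of them past the test. By leaving out libraries, Ltc4s ranged from -0.13 to 1.38, Alox5ap from -0.25 to 0.14, Pla2g4a from -0.014 to 0.13, Pla2g7 from -0.15 to 0.53, Ptges2 from -0.18 to 0.16 and Akr1b3 from -0.23 to 0.071.

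Luteolin in stimulated cells: 4624 genes passed, 54.65% of them lower, and 3 members. Ptgs2 passed as lower in every setting tried. Library size alone shifted the median log2 fold change of all genes to 0.13 and the lower share to 31.42%, and 6 members passed, 3 of them in the lipoxygenase arm. Upper-quartile factors gave 38.2% lower and 5 members, 3 of them in that arm. Under both, Hpgds no longer passed, nor did it with limma or all 9 libraries in 1 fit. In the fit of all 9 libraries 1093 genes and 1 member passed, 83.9% of the genes lower. Alox5ap, near 0, changed sign with median-ratio size factors (-0.00053) and in the fit of all 9 libraries (-0.0017). Leaving out each library gave 1 to 4 members (1 to 2 and 0 to 2 by arm), Alox5ap from -0.035 to 0.041 and Pla2g4a from -0.0081 to 0.063. For stimulation, library size alone moved the lower share from 31.22% to 63.03% and the median to -0.15, and upper-quartile factors moved the share to 47.63%.

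Luteolin and stimulation against Control: 351 genes and 0 members passed. Ptgs2 was the 1 member that passed with DESeq2 (1385 genes), limma, no filter on low counts (811 genes), all 9 libraries in 1 fit (1251 genes), the replicate block (212 genes) and Control replicate 1 alone (2447 genes). With no filter Hpgds was at 0.044, and with Control replicate 1 alone Ptgs1 was at -0.046, Hpgds at 0.20, Alox5 at -0.033, Alox5ap at 0.17, Ltc4s at -0.43 and Lta4h at -0.033. Leaving out each library gave 2 to 6931 genes, 0 to 5 members (0 to 2 and 0 to 3 by arm), Hpgds from -0.13 to 0.039 and Alox5ap from -0.21 to 0.14. The highest counts were without Control replicate 1. The cause of these moves was not tested.

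Same-numbered libraries of IgE+BSA and IgE+BSA+Luteolin had correlated deviations of -0.02 to 0.28, with 2 of 3 pairs above 0.1. Between libraries of these 2 groups with different numbers the values were -0.28 to 0.15. Same-numbered libraries of Control and IgE+BSA had 1 of 3 above 0.1, and those of Control and IgE+BSA+Luteolin 2 of 3. These values do not settle whether the numbers pair the libraries, and the main test did not pair them. With the replicate block in the luteolin comparison 5 members passed, Ptgs1 (0.12) and Ltc4s (0.34) in addition. Depth limits Ptges most, at 11 to 57 counts per library.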
